A study of Mus musculus with 6 samples.

Results

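Ubiquitin ligases, proteasome subunits and deubiquitinases were described in the RNA of 6 isolated mouse hearts. Members were chosen by gene symbol alone: every protein-coding gene whose name begins with a symbol of these families (Trim, Rnf, Fbx, Klhl, Asb, Cul, Ube, Uba, Ubb, Psm, Usp, Otu), with 1 symbol left out by the rule. A few match by their letters only, such as Usp6nl, a regulator of Rab GTPases. This gave 217 genes and 280 transcripts out of the 8971 protein-coding genes measured. The hearts were taken from male mice and kept alive on a Langendorff apparatus, where buffer is driven through the coronary vessels. The 3 I/R hearts were arrested with a cardioplegic solution, left ischaemic for 30 min and then reperfused for 1 h, and the 3 Sham hearts were not arrested. The labels give no strain, age or genotype and no agent other than the cardioplegic solution. They number the hearts as biological replicates without saying more, so the p values measure the spread between these 3 and 3 hearts. An isolated heart receives no new leukocytes from circulating blood, which limits it as a model of an arrested heart in the body.

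Ubiquitin is a small protein that is attached to other proteins by a relay of an activating enzyme, a conjugating enzyme and a ligase, and chains of it mark a protein for the proteasome. Most ligases carry a RING domain (many Rnf and Trim proteins) or use a cullin scaffold that reaches its substrate through an adaptor (Fbx, Klhl and Asb proteins). Deubiquitinases of the Usp and Otu families remove ubiquitin again. In heart and skeletal muscle this system turns over sarcomere proteins, and several ligases and adaptors are found mainly in striated muscle.

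After 1 h of reperfusion no member passed the test between the groups, and the members as a whole took a similar share of the reads in every heart. Levels are FPKM (reads scaled by transcript length and library total). Each change is a difference between group means, I/R minus Sham, of log2(FPKM + 1), with its SE. The added 1 makes this change smaller than the true ratio for genes of low level. Of the 217 members, 127 had a mean of at least 0.5 FPKM and were tested, and 90 lay under that level. At an adjusted p under 0.05, 0 of 127 members and 0 of 12115 genes were called (background 0%), with a smallest adjusted p of 0.386 among members (limma, Benjamini-Hochberg over all genes). The members held 1.97%, 2.04% and 2.07% of the listed protein-coding reads in I/R hearts 1, 2 and 3, against 1.93%, 2.01% and 1.93% in Sham hearts 1, 2 and 3. The median change over the members was 0.01, beside 0.02 over all protein-coding genes tested.

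At an unadjusted p under 0.05 limma gave 6 members higher in I/R and 4 lower, 4.72% and 3.15% of those tested. The same counts over all protein-coding genes tested were 3.43% higher and 1.67% lower, and over all genes with lncRNAs included 4.23% and 4.21%. At the protein-coding shares, 4.36 and 2.12 members would stand in the 2 counts. All 3 I/R hearts lay above all 3 Sham hearts for 15 members (11.8%, background 8.83% of protein-coding genes and 7.1% of all genes) and below them for 11 (8.66%, background 5.12% and 6.57%). Of those 11, Trim12a and Fbxo39 reached 0.5 FPKM only in Sham, so their I/R mean had to be lower for them to be tested, and their place among the 11 supports no direction. By sign alone 67 members were higher and 60 lower, so that 52.8% were higher, beside 54.9% of protein-coding genes and 49.7% of all genes. With median ratio scaling of the hearts these splits were 12 above against 14 below and 56 higher against 71 lower, so no direction is given for the members as a whole.

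**Figure D1:**
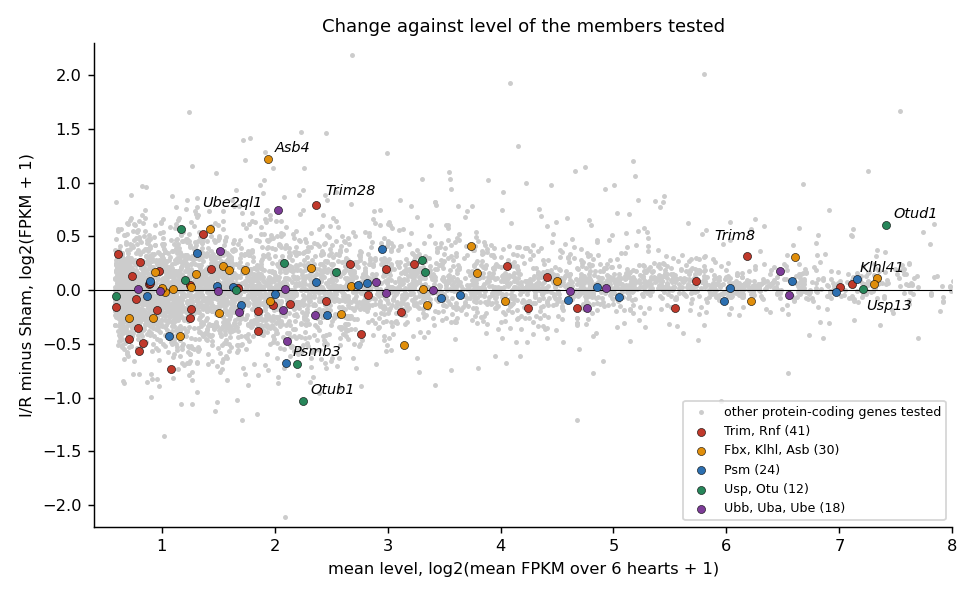
Each dot is a gene: the x axis gives its mean level over 6 hearts as log2(FPKM + 1) and the y axis I/R minus Sham on the same scale, with 125 of the 127 members tested coloured by family (number in brackets) and other protein-coding genes in grey. The x axis ends above the most abundant member, so some abundant grey genes lie outside it. The 18 members at 50 FPKM or more lie between −0.10 and 0.60, and the members furthest from 0, Asb4 at 1.22 and Otub1 at −1.03, have low levels.

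Most of the members' reads came from a few genes. The 18 members with a mean of at least 50 FPKM held 74.7% of all member reads, and 112 of the 217 members lay under 1 FPKM. Of the members tested, 14 differed by more than 0.5 in either direction and 2 by more than 1. The listed protein-coding transcripts held 36.8% to 39.9% of the 7233171 to 9902397 reads that the authors scaled by, and for any gene the part of its reads that the listed transcripts hold is not known. For 168 of the 217 members a single transcript was listed.

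Cell type markers were read beside these results, and none of them had an adjusted p under 0.05 (limma). Among all protein-coding genes tested 54.9% were higher by sign, and 3.43% were higher and 1.67% lower with an unadjusted p under 0.05. For 8.83% all I/R hearts lay above all Sham hearts. All 9 cardiomyocyte markers were present at 0.5 FPKM or more, 7 were lower in I/R, 2 of them at an unadjusted p under 0.05, while their summed level was 9634 to 10464 FPKM in I/R hearts and 9654 to 10265 FPKM in Sham hearts, most of it Fabp3. All 4 macrophage markers were higher, with sums of 1086 to 1203 FPKM in I/R and 889.9 to 1077 in Sham, and 5 of 6 fibroblast markers were higher, 2 of them (Col1a1 and Col3a1) at an unadjusted p under 0.05 and with all I/R hearts above all Sham hearts, with sums of 298 to 337 FPKM in I/R and 212 to 289 in Sham, while Col1a2 had 1 read over all hearts. Of 3 endothelial markers 2 were higher (sums of 116 to 146 FPKM in I/R and 95.2 to 124 in Sham), and 4 smooth muscle and pericyte markers were split 2 and 2 (795 to 1131 FPKM in I/R and 810.1 to 1064 in Sham). Neutrophil markers summed to at most 0.215 FPKM in I/R and 0.602 in Sham, with S100a8 at 0 in 5 of 6 hearts. Haemoglobin genes summed to 1.09 to 6.20 FPKM in I/R and 1.86 to 6.54 in Sham. The sum of the skeletal muscle markers was uneven within both groups (356 to 1381 FPKM in I/R and 169.99 to 1181 in Sham, nearly all of it Acta1). Of these markers Mylpf and Tnnt3 lay under the level tested, with means of 0.0992 and 0.434 FPKM over 6 hearts. The sum thus follows Acta1 and is no measure of skeletal muscle tissue. The part of these cell types in the members' values was not tested. In bulk tissue, fewer cells of a type and less RNA per cell cannot be told apart.

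Ubb (GRCm38 chromosome 11, 62551171 to 62553213), which encodes ubiquitin itself in tandem copies, had 0.877, 4.93 and 6.60 FPKM in I/R hearts 1, 2 and 3, against 4.43, 3.96 and 4.04 FPKM in Sham hearts 1, 2 and 3. I/R heart 1 was the lowest of all and the other I/R hearts the highest, so that the change of −0.23 ± 0.50 was 0.39 without I/R replicate 1. It shares nearly identical ubiquitin sequence with other genes, so the split of reads is uncertain.

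No activating enzyme had an unadjusted p under 0.05. Uba1, the main ubiquitin-activating enzyme, was at 0.720 ± 0.112 FPKM in I/R and 0.728 ± 0.371 FPKM in Sham (SD over 3 hearts each, as for all means here). Uba2, a subunit of the enzyme that activates the related modifier SUMO, was at 1.98 ± 0.144 FPKM in I/R and 2.46 ± 0.574 in Sham. The most abundant conjugating enzymes were Ube2g2, which serves degradation at the endoplasmic reticulum, and Ube2h. Ube2g2 had 96.9, 91.9 and 86.0 FPKM in I/R hearts and 92.7, 89.4 and 101 FPKM in Sham hearts, an overlap with a change of −0.04 ± 0.10.

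Ube2h had 89.7, 93.7 and 97.5 FPKM in I/R hearts and 79.5, 82.9 and 85.2 FPKM in Sham hearts. Its groups did not overlap, but the change of 0.18 ± 0.09 did not pass the test (limma, adjusted p = 0.646). Of the 18 ubiquitin genes, activating enzymes and conjugating enzymes tested, 8 were higher and 10 lower by sign, but 5 and 13 with median ratio scaling and 10 and 8 with quantile normalization.

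Among the conjugating enzymes, Ube2ql1 and Ube2l6 had an unadjusted p under 0.05, in opposite directions. Ube2ql1 (chromosome 13, 69702832 to 69739889), a relative of the Ube2q enzymes, had 4.91, 4.12 and 3.25 FPKM in I/R hearts, against 2.49, 2.60 and 1.19 FPKM in Sham hearts. The I/R hearts were all above the Sham hearts (0.74 ± 0.27; limma, adjusted p = 0.528; 267 reads in I/R and 156 in Sham). Its unadjusted p was under 0.05 under 10 of 10 other settings but in 3 of 6 fits with 1 heart left out. Ube2l6 (chromosome 2, 84798828 to 84810335), the conjugating enzyme of the interferon-induced modifier ISG15, had 3.09, 2.35 and 2.42 FPKM in I/R hearts, against 4.26, 3.87 and 3.91 FPKM in Sham hearts. Here the I/R hearts were all below the Sham hearts (−0.48 ± 0.18; limma, adjusted p = 0.559; 85 reads in I/R and 122 in Sham). Its unadjusted p stayed under 0.05 under 6 of 10 other settings and in 1 of 6 fits with 1 heart left out, and limma voom on the recovered reads gave −0.38 ± 0.25. The longer transcript of Ube2l6, with 91.8% of its reads, had 2.33, 2.02 and 2.05 FPKM in I/R hearts and 2.20, 2.66 and 3.10 FPKM in Sham hearts, an overlap, and taken alone it gave −0.22 ± 0.19. The separation of the gene's groups thus needs the shorter transcript of 343 bases, which had 2, 1 and 1 reads in I/R hearts and 7, 4 and 2 reads in Sham hearts.

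Members of the Trim and Rnf families, many of them RING ligases, numbered 72, of which 41 were tested, 20 higher and 21 lower by sign with a median of −0.04. Trim35 and Trim72 were the most abundant Trim genes. Trim35 was at 140.4 ± 8.73 FPKM in I/R and 135 ± 4.68 in Sham, with overlapping groups. Of the Rnf genes, Rnf7, the RING subunit that partners the cullin used by Asb proteins, was highest at 42.9 ± 4.98 FPKM in I/R and 48.3 ± 4.63 in Sham (−0.17 ± 0.13). Rnf144b, a RING-between-RING ligase, had 28.6, 18.4 and 20.7 FPKM in I/R hearts and 16.6, 24.2 and 38.7 FPKM in Sham hearts, where the Sham hearts alone spanned more than a doubling.

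Trim28 (ENSMUSG00000005566, chromosome 7, 12999114 to 13031035), better known as a corepressor that silences genes and transposable elements through zinc finger proteins, had 5.89, 5.72 and 4.96 FPKM in I/R hearts, against 2.24, 2.62 and 3.49 FPKM in Sham hearts. The groups stood clear of each other, on 438 reads in I/R and 236 in Sham. The change was 0.80 ± 0.20 (limma, unadjusted p = 0.00573, adjusted p = 0.402). It kept an unadjusted p under 0.05 under 10 of 10 other settings and without each of 6 hearts. These fits reuse the hearts in which the gene was picked by its p, so they are no independent support. In RefSeq the span listed for Trim28 also overlaps Zbtb45, and the reads of that overlap could belong to either gene.

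Trim8 (ENSMUSG00000025034, chromosome 19, 46501648 to 46516444), a RING protein that acts in cytokine signalling, had 89.3, 76.3 and 73.0 FPKM in I/R hearts, against 61.2, 62.8 and 66.5 FPKM in Sham hearts. All I/R hearts were higher (0.32 ± 0.11; limma, unadjusted p = 0.0268, adjusted p = 0.525), on 6257 reads in I/R and 5465 in Sham. It was the member with the most reads among those with an unadjusted p under 0.05. Without 1 heart at a time its change was between 0.23 and 0.38, with an unadjusted p under 0.05 in 3 of 6 fits, and in 8 of 10 other settings.

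No Rnf gene had an unadjusted p under 0.05. Rnf217, a RING-between-RING ligase, had all I/R hearts above all Sham hearts (9.15 ± 0.185 FPKM in I/R and 7.65 ± 1.30 in Sham), and Rnf113a1 and Rnf130 had all I/R hearts below. Rnf113a1, which belongs to the spliceosome, was at 2.14 ± 0.157 FPKM in I/R and 3.10 ± 0.537 in Sham. Trim12a, Trim30d and Trim59 were also below throughout. That makes 1 of 23 Rnf genes tested above and 2 below, and 2 of 18 Trim genes above and 3 below. Beside 8.83% above and 5.12% below among all protein-coding genes tested, these counts are too few to read. Trim12a was at 0.380 ± 0.187 FPKM in I/R and 0.892 ± 0.264 in Sham, and Trim30d at 2.35 ± 0.188 FPKM in I/R and 2.86 ± 0.48 in Sham, but both have near-identical relatives that could share their reads, and Trim12a was tested only through its Sham mean. The HECT ligase Ube3a and the chain-extending ligase Ube4a differed by −0.03 ± 0.22 and −0.01 ± 0.19.

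Adaptors of cullin ligases numbered 60, of which 30 were tested, 19 higher and 11 lower by sign (16 and 14 with median ratio scaling), with a median of 0.03. The most abundant was Klhl21, an adaptor known from cell division, at 166 ± 15.0 FPKM in I/R and 154 ± 19.8 in Sham. Its groups overlapped, while the lncRNA Gm9768 on the opposite strand had 121, 118 and 120.3 FPKM in I/R hearts and 76.8, 86.4 and 96.3 FPKM in Sham hearts. The change of Gm9768, 0.47 ± 0.11, did not pass the test (limma, adjusted p = 0.386). Of all genes tested, 7.1% had all I/R hearts above all Sham hearts. Whether the reads were counted by strand is not known here, so a read of this pair cannot be assigned. Of the F-box genes, Fbxo45 was highest at 22.3 ± 1.95 FPKM in I/R and 21.0 ± 2.46 in Sham, and Fbxl20 followed at 14.9 ± 0.511 FPKM in I/R and 16.02 ± 1.68 in Sham. Of 15 F-box genes tested 0 had an unadjusted p under 0.05, and Fbxl18 and Fbxo39 were the ones without overlap, Fbxl18 above and Fbxo39 below (0.487 ± 0.1405 FPKM in I/R and 0.776 ± 0.132 in Sham, tested only through its Sham mean). Beside 8.83% above and 5.12% below among all protein-coding genes tested, 1 and 1 of 15 are too few to read. Cul4a was the only cullin gene that matched and had 4 reads in I/R and 18 in Sham, under the level tested.

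Asb proteins carry ankyrin repeats and a SOCS box that binds a cullin complex. The member furthest from 0 was Asb4 (ENSMUSG00000042607, chromosome 6, 5383386 to 5433022), an adaptor known from the developing vasculature, with 2.84, 5.80 and 4.47 FPKM in I/R hearts, against 1.502, 1.63 and 0.726 FPKM in Sham hearts. All I/R hearts were above all Sham hearts, on 124 reads in I/R and 41 in Sham. The change was 1.22 ± 0.29 (limma, unadjusted p = 0.00431, adjusted p = 0.388), and 1.70 ± 0.42 with limma voom on the reads. Its unadjusted p was under 0.05 under 10 of 10 other settings and without each of 6 hearts. Asb8, a broadly expressed member, was at 70.8 ± 1.67 FPKM in I/R and 76.2 ± 6.04 in Sham, an overlap.

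Of 23 ligases and adaptors listed as found mainly in striated muscle, 11 were in the table. Trim63, Trim54, Trim55 and Fbxo32, the best known atrophy and sarcomere ligases, were not analysed here. Of the 8 members tested 7 were higher in I/R by sign (6 with median ratio scaling, where Trim72 turned), 1 with an unadjusted p under 0.05, and 2 had all I/R hearts above all Sham hearts. Among all protein-coding genes tested 54.9% were higher by sign, 3.43% were higher with an unadjusted p under 0.05 and 8.83% had all I/R hearts above, so 1 and 2 of 8 genes are too few to read against these shares. The median of the 8 was 0.16, but 0.05 with no filter on level, which adds the 3 muscle members with few reads, and 0.27 with a pseudocount of 0.1 or with limma voom. Their summed level was 444, 428 and 383 FPKM in I/R hearts and 373, 397 and 378 FPKM in Sham hearts, with I/R heart 3 inside the range of the Sham hearts.

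Asb12 (ENSMUSG00000031204, chromosome X, 95470201 to 95557987) was the muscle adaptor with an unadjusted p under 0.05. It had 13.7, 15.2 and 13.6 FPKM in I/R hearts, against 11.6, 9.40 and 10.3 FPKM in Sham hearts. The I/R hearts were all higher, on 437 reads in I/R and 353 in Sham (0.41 ± 0.15; limma, unadjusted p = 0.0281, adjusted p = 0.528). With 1 heart left out its unadjusted p was under 0.05 in 2 of 6 fits.

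The abundant muscle members overlapped between the groups. Klhl41, which stabilises nebulin and the thin filament in skeletal muscle, had 154, 177 and 151 FPKM in I/R hearts and 146, 164 and 154 FPKM in Sham hearts. Trim72, known as MG53, a protein of membrane repair, had 135, 119 and 133 FPKM in I/R hearts and 117, 145 and 118 FPKM in Sham hearts, with both the lowest and the highest value in Sham. The lncRNA Gm15533 on the opposite strand of Trim72 had 31365 reads, against 13961 for Trim72. Reads of this pair cannot be assigned either. Asb2, which directs filamins to degradation, had 132, 111 and 80.2 FPKM in I/R hearts and 91.6, 73.9 and 89.8 FPKM in Sham hearts. I/R hearts 1 and 2 were above all Sham hearts and I/R heart 3 was not (0.31 ± 0.19; limma, adjusted p = 0.722), and the change was 0.51 without that heart and 0.15 without I/R replicate 1.

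The other muscle members had few reads. Asb10 had 3.09, 1.33 and 2.32 FPKM in I/R hearts and 1.20, 1.16 and 1.06 FPKM in Sham hearts, without overlap but with a wide spread in I/R (0.56 ± 0.25; limma, adjusted p = 0.602; 77 reads in I/R and 44 in Sham). Asb18 was at 1.72 ± 1.24 FPKM in I/R and 1.98 ± 0.689 in Sham, and Asb15 at 1.02 ± 0.180 FPKM in I/R and 0.816 ± 0.362 in Sham. Fbxo40, an adaptor that targets an insulin receptor substrate in skeletal muscle, was at 1.61 ± 0.538 FPKM in I/R and 1.33 ± 0.257 in Sham. In these 3 genes the groups overlapped. Asb5, Asb14 and Klhl31 lay under the level tested, with 5, 4 and 11 reads in I/R and 15, 4 and 12 in Sham.

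**Figure D2:**
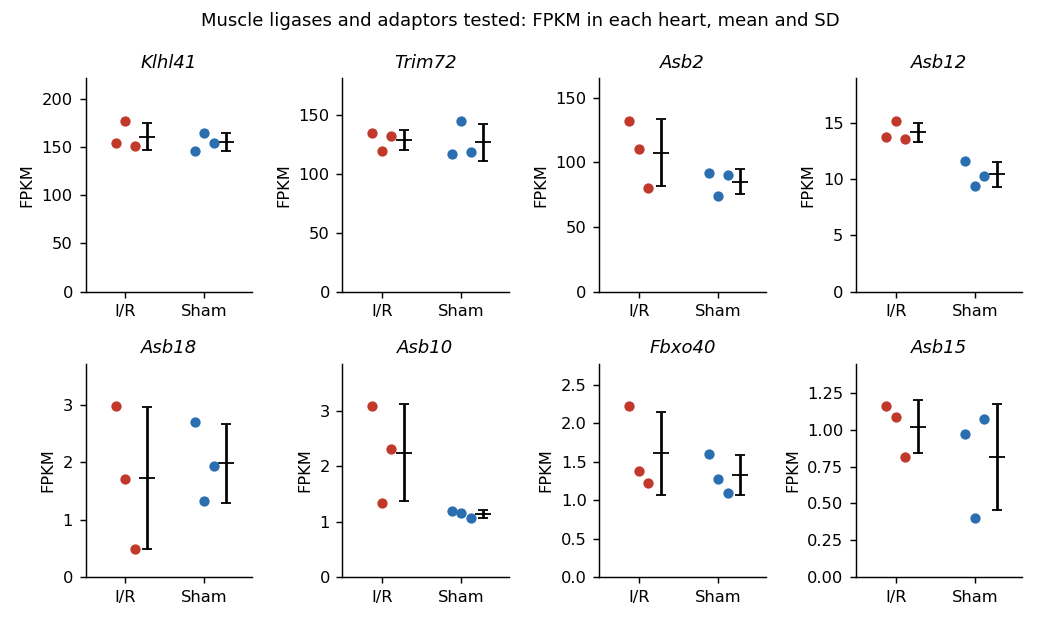
FPKM of the 8 muscle ligases and adaptors tested, with 1 dot per heart (I/R in red, Sham in blue) and bars for the mean and SD, each panel with its own axis from 0. Asb12 and Asb10 are the panels in which all I/R dots lie above all Sham dots, Asb12 with 13.6 to 15.2 FPKM in I/R and 9.40 to 11.6 in Sham.

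The muscle members share a tissue, and several share a muscle transcription factor motif. The promoters shown were picked from theirs because the stretch printed holds the MEF2 motif or the CArG box, described below. The other muscle promoters are not shown. RefSeq promoters of build GRCm38.p6 were matched for 179 of 217 members, among them all 11 muscle members, and searched on both strands over 250 bases before the start. The motif of MEF2, a factor of muscle genes, was added after it had been seen in the promoter of Asb12. It was found in 5 of 11 muscle members (Asb12, Asb14, Asb18, Fbxo40 and Klhl41), in 8 of 179 members (4.47%) and in 2.92% of 32851 promoters. The 5 of 11 thus count the promoter that led to the search. The CArG box, bound by serum response factor, was found in 2 of 11 (Asb2 and Asb5), in 2.79% of members and in 1.47% of all promoters. The 120 bases before the start follow, 5′ to 3′ on the gene's strand, with motif matches in capitals: the MEF2 motif in the first 5, with a CCAAT match at the end of Asb12, and the CArG box in Asb2.
Klhl41 (chr2:69670000-69670119, plus strand): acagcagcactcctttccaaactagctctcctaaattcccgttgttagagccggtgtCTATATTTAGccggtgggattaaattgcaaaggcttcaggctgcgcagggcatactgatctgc
Asb12 (chrX:95478130-95478249, minus strand): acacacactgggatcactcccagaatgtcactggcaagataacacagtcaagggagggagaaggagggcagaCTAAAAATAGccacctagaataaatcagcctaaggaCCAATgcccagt
Fbxo40 (chr16:36990468-36990587, minus strand): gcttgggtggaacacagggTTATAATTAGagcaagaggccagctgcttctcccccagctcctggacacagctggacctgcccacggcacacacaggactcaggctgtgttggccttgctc
Asb18 (chr1:90014667-90014786, minus strand): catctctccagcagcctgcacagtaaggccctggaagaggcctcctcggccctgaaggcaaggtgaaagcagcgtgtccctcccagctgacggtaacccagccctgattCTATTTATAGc
Asb14 (chr14:26894494-26894613, plus strand): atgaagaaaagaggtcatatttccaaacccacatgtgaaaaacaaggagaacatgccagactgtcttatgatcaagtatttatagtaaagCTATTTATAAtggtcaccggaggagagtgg
Asb2 (chr12:103356002-103356121, minus strand): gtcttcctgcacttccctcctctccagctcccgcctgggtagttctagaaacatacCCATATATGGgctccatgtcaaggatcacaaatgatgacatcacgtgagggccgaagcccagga

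The levels of the genes with the MEF2 motif differed widely, with Klhl41 at a mean of 158 FPKM over 6 hearts, Asb12 at 12.3, Asb18 at 1.85, Fbxo40 at 1.47 and Asb14 at 0.0832 FPKM. Their changes also differed in sign, with Asb12 at 0.41 ± 0.15 and Asb18 at −0.22 ± 0.39. The RefSeq start of Asb12 lies inside the span that the table gives for the gene, so the transcript counted may begin elsewhere. A match is a description of the letters and not evidence of binding.

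The proteasome is a barrel of alpha and beta subunits, the core particle, capped by a regulatory particle of ATPases and other subunits. Of 31 Psm genes listed 24 were tested, 12 higher and 12 lower by sign (10 and 14 with median ratio scaling), with a median of −0.00. limma gave 0 of them higher and 1 lower with an unadjusted p under 0.05, beside 3.43% and 1.67% of all protein-coding genes tested. All I/R hearts lay above all Sham hearts for 2 genes and below for 2, beside 8.83% and 5.12% of protein-coding genes. Counts this small are too few to read against these shares. Summed over the proteasome, the hearts had 665, 599 and 657 FPKM in I/R and 621, 657 and 625 FPKM in Sham, which overlap. Although subunits are assembled in fixed numbers, their listed levels ran from a mean of 0.0293 FPKM (Psma6) to 142 FPKM (Psmc2).

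In the core particle, 10 of 15 genes were tested, 7 higher and 3 lower by sign. Psmb7, which carries the trypsin-like activity, was highest and had 111, 87.6 and 93.8 FPKM in I/R hearts and 88.4, 102 and 85.6 FPKM in Sham hearts, an overlap. Psma5 had 60.2, 58.2 and 60.9 FPKM in I/R hearts and 61.0, 65.4 and 66.1 FPKM in Sham hearts, where every I/R heart was lower by a small step (−0.10 ± 0.09; limma, adjusted p = 0.837). Psmb2 was the core gene with all I/R hearts above, at 8.78, 6.67 and 7.88 FPKM in I/R and 6.47, 5.19 and 5.47 FPKM in Sham (0.39 ± 0.18; limma, adjusted p = 0.613). Psmb5, the chymotrypsin-like subunit, was at 0.914 ± 0.226 FPKM in I/R and 0.801 ± 0.124 in Sham.

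Psmb3 (ENSMUSG00000069744, chromosome 11, 97703399 to 97713500) was the proteasome gene with the smallest p. It had 3.23, 1.61 and 2.17 FPKM in I/R hearts, against 4.48, 4.06 and 4.15 FPKM in Sham hearts. The I/R hearts were all lower, on 43 reads in I/R and 87 in Sham (−0.68 ± 0.23; limma, unadjusted p = 0.0221, adjusted p = 0.501). With 1 heart left out its unadjusted p was under 0.05 in 2 of 6 fits.

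Promoters of proteasome genes were searched for the CCAAT box of the factor NF-Y and for the antioxidant response element TGACNNNGC, to which regulators of proteasome genes bind. CCAAT was found in 8 of 23 proteasome promoters, in 33.5% of members and in 33.8% of all promoters. TGACNNNGC was found in 3 of 23 (Psmb5, Psmc6 and Psmd12) and in 10.2% of all promoters. Over all members, the heat shock element GAANNTTC was found in 6 of 179, the AP-1 motif TGANTCA in 7 and the NF-kB motif in 1, beside 6.69%, 6.75% and 1.41% of all promoters. The promoter of Psmb3 is shown because this gene had the smallest p of the proteasome, with its CCAAT matches in capitals.
Psmb3 (chr11:97703314-97703433, plus strand): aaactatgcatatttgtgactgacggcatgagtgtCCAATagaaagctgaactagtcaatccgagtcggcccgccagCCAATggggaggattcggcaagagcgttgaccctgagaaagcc

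In the regulatory particle the ATPase gene Psmc2 had 143, 145 and 152 FPKM in I/R hearts and 127, 141 and 143 FPKM in Sham hearts. The I/R hearts were all above the Sham hearts, with I/R heart 1 and Sham heart 3 nearly touching (0.10 ± 0.09; limma, adjusted p = 0.825). Psmc6 and Psmc3 overlapped, and Psmc3 had 0.357, 0.494 and 1.62 FPKM in I/R hearts and 1.44, 1.08 and 1.52 FPKM in Sham hearts. Of 8 non-ATPase genes tested 2 were higher and 6 lower by sign (1 and 7 with median ratio scaling), and 0 of them had groups that did not overlap. Psmd7, a scaffold for the deubiquitinase subunit Psmd14, was at 124 ± 10.1 FPKM in I/R and 125 ± 6.0 in Sham, and Psmd3 at 28.2 ± 1.35 FPKM in I/R and 27.8 ± 3.04 in Sham. Psmd14 was at 4.35 ± 1.45 FPKM in I/R and 3.95 ± 0.402 in Sham.

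Psme4, which encodes the activator PA200, had 26.1, 31.6 and 35.01 FPKM in I/R hearts and 46.5, 25.1 and 28.2 FPKM in Sham hearts, with Sham heart 1 the highest of all. Most of this level came from short transcripts of 576 and 657 bases, with 51.3% and 42.4% of the reads. The transcript of 6491 bases held 6.32% and had means of 0.232 FPKM in I/R and 0.179 in Sham. In RefSeq the span listed for Psme4 also overlaps Erlec1. The assembly chaperone Psmg2 was at 65.1 ± 5.51 FPKM in I/R and 64.2 ± 3.36 in Sham. The interferon-inducible immunoproteasome was represented by Psmb8 and Psme1, both under the level tested. Psmb8 had 13 reads in I/R and 10 in Sham, and Psme1 had 1 read over all hearts.

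**Figure D3:**
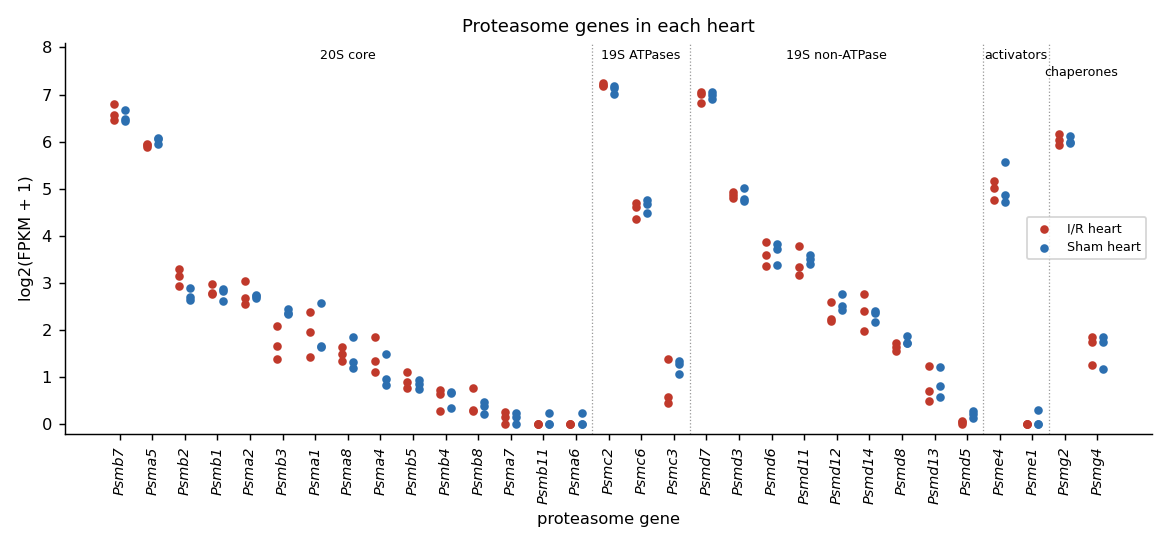
Level of each proteasome gene as log2(FPKM + 1), with 1 dot per heart (I/R red and left, Sham blue and right), grouped by subcomplex and ordered by mean level. The levels span from near 0 to 142 FPKM (Psmc2), and Psmb2, Psmc2, Psma5 and Psmb3 are the tested genes whose groups do not overlap.

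Members with Usp and Otu symbols, the deubiquitinase families, numbered 25 with Usp6nl counted by its letters. Of these 12 were tested, 8 higher and 4 lower by sign with a median of 0.13. Otud1, an Otu deubiquitinase that acts in inflammatory signalling, had the highest mean of all members, 169.6 FPKM. It had 119, 199 and 293 FPKM in I/R hearts and 102, 214 and 90.3 FPKM in Sham hearts. I/R heart 3 was the highest and Sham heart 2 lay above both other I/R hearts, so that the groups overlapped (0.60 ± 0.42; limma, adjusted p = 0.753). The change was 0.94 without I/R replicate 1 and 0.99 without Sham replicate 2, but 0.30 without I/R replicate 3 and 0.37 without Sham replicate 3. Of the 18 members at 50 FPKM or more it had the largest SE.

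Usp13, a deubiquitinase of degradation at the endoplasmic reticulum, had the smallest SE of those 18, with 149, 147 and 146 FPKM in I/R hearts and 143, 146 and 149 FPKM in Sham hearts. On 27262 reads in I/R and 29596 in Sham its change was 0.01 ± 0.08, and −0.02 with median ratio scaling. Usp32, Usp39, which belongs to the spliceosome, and Usp42 had all I/R hearts above all Sham hearts. These are 3 of 9 Usp genes tested, beside 8.83% of all protein-coding genes tested, and 9 genes are too few to read against that share. Usp39 was at 9.85 ± 0.749 FPKM in I/R and 7.96 ± 1.18 in Sham, Usp32 at 9.62 ± 0.727 FPKM in I/R and 8.46 ± 0.286 in Sham, and Usp42 at 3.61 ± 0.297 FPKM in I/R and 2.87 ± 0.363 in Sham. Of 9 Usp genes tested, 0 had an unadjusted p under 0.05. Usp46 came nearest, with 3.57, 1.67 and 2.31 FPKM in I/R hearts and 5.13, 3.07 and 5.76 FPKM in Sham hearts, which overlap (limma, unadjusted p = 0.0527, adjusted p = 0.595).

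Otub1 (ENSMUSG00000024767, chromosome 19, 7198202 to 7206316) trims ubiquitin chains and also blocks conjugating enzymes by binding them. In the fit of log2(FPKM + 1) it had the smallest p of all members. It had 2.04, 2.02 and 2.29 FPKM in I/R hearts, against 5.89, 4.19 and 6.20 FPKM in Sham hearts. The I/R hearts lay close together and far below the Sham hearts (−1.03 ± 0.20; limma, unadjusted p = 0.00158, adjusted p = 0.386). These values rest on 7, 8 and 8 reads in I/R and 64 reads in Sham over 1 listed transcript of 446 bases. With limma voom on the recovered reads the change was −1.27 ± 0.40 (unadjusted p = 0.00871). There Trim28 (limma voom, unadjusted p = 0.000335) and Asb4 (0.00184) were among the members with a smaller p. Its unadjusted p was under 0.05 under 10 of 10 other settings and without each of 6 hearts.

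**Figure D4:**
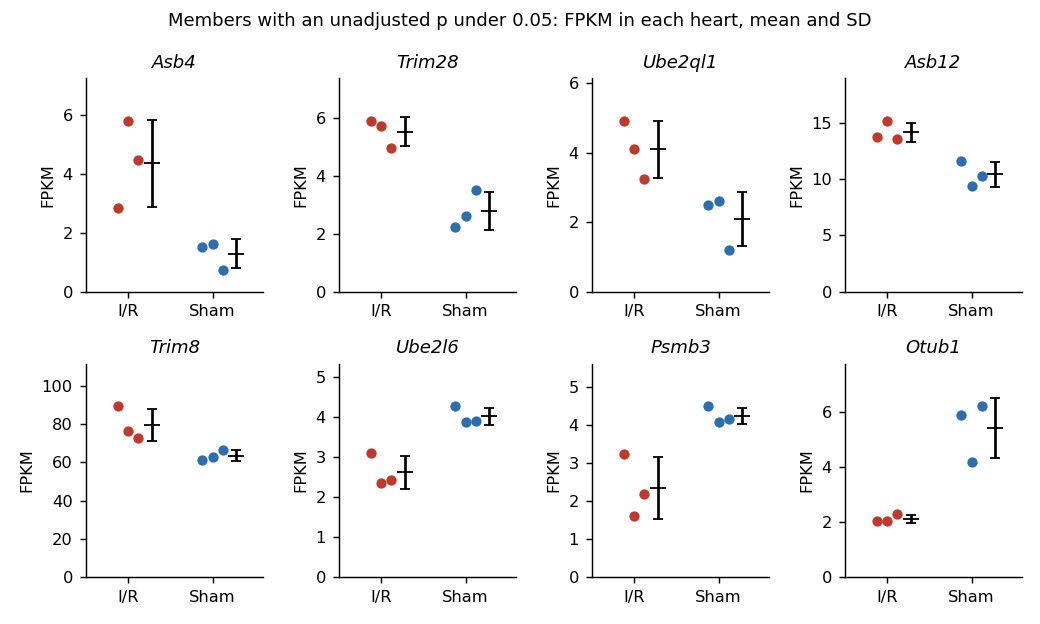
FPKM in each heart of 8 of the 10 members with an unadjusted p under 0.05 (limma), with 1 dot per heart (I/R in red, Sham in blue), bars for the mean and SD and axes from 0. From top left the panels run from Asb4 (1.22) to Otub1 (−1.03) by change, and in each the groups do not overlap, although no adjusted p was under 0.05.

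By family, the medians of the genes tested lay close to 0. The Asb genes had the highest median of the families with at least 5 genes tested, 0.20 over 10 genes, and the Rnf genes the lowest, −0.10 over 23 genes. The Trim genes had a median of 0.03 over 18 genes, the F-box genes 0.02 over 15, the Klhl genes 0.03 over 5, and the Usp genes 0.16 over 9. The differences between these medians were not tested.

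**Figure D5:**
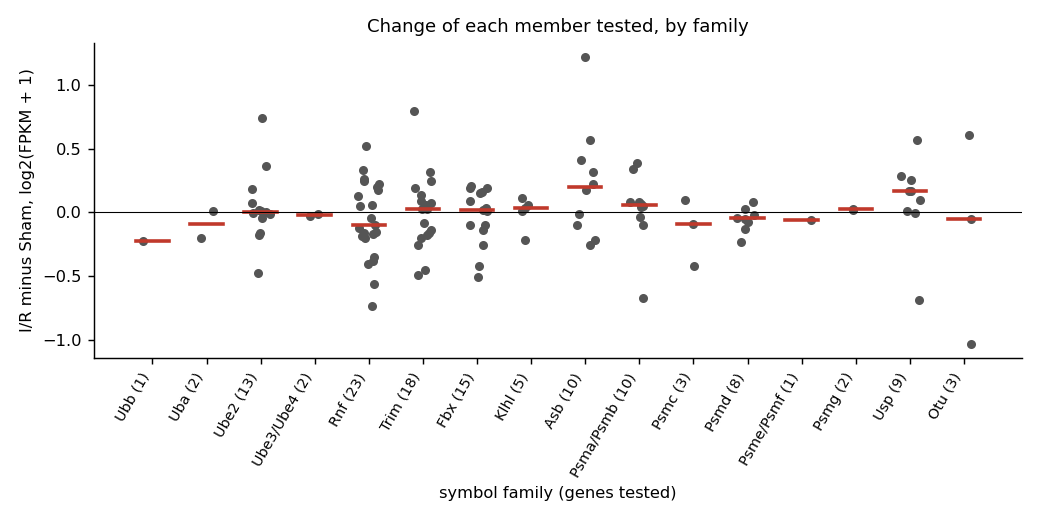
Change of 125 of the 127 members tested (I/R minus Sham, log2(FPKM + 1)) by symbol family, with 1 dot per gene, the number tested in brackets and a red line at the median. The medians lie near 0 in most families, at 0.20 for Asb and −0.10 for Rnf, with Asb4 at 1.22 and Otub1 at −1.03 as the outermost genes.

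Other genes of the pathway were taken from lists of ligases, cullin complex subunits, deubiquitinases, shuttle factors and SUMO enzymes outside these symbols. Of 64 listed 46 were tested, 31 higher and 15 lower by sign but 18 and 28 with median ratio scaling, with a median of 0.02 that turned to −0.01 there. Siah2 had an unadjusted p under 0.05, the 1 gene of the 46 to do so. Siah2 (chromosome 3, 58674938 to 58692400) is a RING ligase known for destabilising the prolyl hydroxylases that sense oxygen, with 24.3, 30.1 and 24.1 FPKM in I/R hearts, against 17.1, 19.7 and 13.3 FPKM in Sham hearts. All I/R hearts were above all Sham hearts, on 1617 reads in I/R and 1144 in Sham (0.63 ± 0.18; limma, unadjusted p = 0.0108, adjusted p = 0.457). Its unadjusted p was under 0.05 under 10 of 10 other settings and without each of 6 hearts.

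Of 46 genes 5 had all I/R hearts above all Sham hearts (among them Siah2, Arih1, Topors and the shuttle factor Ubqln2) and 3 below (Cbl, Mdm4 and Cops4), beside 8.83% above and 5.12% below among all protein-coding genes tested, close to the shares in these lists. Cbl, a ligase of activated tyrosine kinases, was at 22.4 ± 0.515 FPKM in I/R and 26.9 ± 1.20 in Sham, and Mdm4, a partner of the p53 ligase Mdm2, at 0.381 ± 0.118 FPKM in I/R and 0.903 ± 0.228 in Sham. Mdm4 reached the level tested only through Sham, so its place among the 3 carries no direction of its own. The cullin adaptor Ddb1 was at 330 ± 6.95 FPKM in I/R and 329 ± 24.8 in Sham, more abundant than any member. March ligases did not match by symbol because the table holds their names as dates. Looked up by gene identifier, 8 were found and 5 tested, 0 with an unadjusted p under 0.05. The endoplasmic reticulum ligase March6 had 179, 194 and 189.9 FPKM in I/R hearts and 184, 193 and 195 FPKM in Sham hearts, an overlap.

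Among the 90 members under the level tested, reads were too few for a comparison in most cases. These include genes of wide use such as Ube2d3, Uba3, Psma6 and Psma7, with 1, 3, 0 and 3 reads in I/R and 0, 4, 1 and 3 in Sham. Of the tested members, 6 reached 0.5 FPKM only in the Sham mean and 1 only in the I/R mean. Of all members, 45 had a lncRNA over their span and 33 had one on the opposite strand. Trim35, Trim72, Asb2 and Ube3a are among the 33, and without known use of strand their reads cannot be assigned.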

How the data were processed

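RNA of 6 mouse hearts was sequenced (3 I/R, 3 Sham) after poly(A) selection, per the labels' protocols. The authors deposited 1 FPKM value per transcript and heart. Tools named in the submitters' processing notes are HISAT2 2.1.0, HTSeq 0.10.0, fastp 0.23.0 and bcl2fastq 2.19.1.403, and builds named there are mm10, GRCm38 and GRCm39. The annotation and the use of strand were not given in the sources used here. Positions come from the table and are given as GRCm38, since 95.3% of 8610 genes overlapped their RefSeq span in that build by at least 50% of their length.

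Repeated rows (40 of 21198) were dropped, and FPKM were summed per gene. The deposited FPKM were used as log2(FPKM + 1) for the 5042 protein-coding and 7073 lncRNA genes whose mean reached 0.5 FPKM. limma 3.58.1 (R 4.3.3) fitted the 2 groups with a variance trend, and two-sided p values were adjusted over 12115 genes by Benjamini-Hochberg. Whole reads (within 0.001) were recovered from the FPKM for 11744 of 11745 mRNA rows. The fit and the recovery were tested on simulated data. Alternatives were another pseudocount, filters, scalings, variance model, a replicate block, the most abundant transcript, limma voom on the reads and each heart left out. The FPKM of mRNA and lncRNA rows were scaled by different totals and were not compared as levels. Named were all muscle members, Ubb, members with an unadjusted p under 0.05 and the 2 most abundant of each family. A few genes, including 2 members that the rule names, enter the counts but are not reported here. Other members were chosen as examples after their values were seen. Members and lists were chosen with earlier results of these data known. Python 3.11.15, pandas 2.3.3 and matplotlib 3.10.9 were used.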

Additional observations from a re-analysis of the deposited data

How the results depend on the processing

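No setting gave a member with an adjusted p under 0.05 (limma, 10 other settings and 6 fits with 1 heart left out). Genes named for an unadjusted p under 0.05 were picked in the same hearts that these settings refit. How many settings keep such a p is therefore no independent support for any of them. Counts at an unadjusted p under 0.05 moved: 10 members were higher with no filter in place of 6, and 8 were lower with no trend and 9 with protein-coding genes alone in place of 4. Over all genes, both directions together, such p values numbered 1223 of 18384 with no filter and 1011 of 12115 with no trend. The reported fit had 1023 of 12115. With protein-coding genes alone they numbered 455 of 5042, where the reported fit gave 173 higher and 84 lower. With a mean of at least 2 FPKM, 7 members had all I/R hearts below in place of 11. With 1 heart left out, members higher at an unadjusted p under 0.05 numbered 4 to 6 and lower 1 to 7 (7 without I/R replicate 1, 1 without I/R replicate 2 or Sham replicate 3, 2 without I/R replicate 3). Members with all I/R hearts above numbered 18 to 23 (23 without Sham replicate 2) and below 12 to 26 (26 without I/R replicate 1, 20 without Sham replicate 2), where 2 against 3 hearts separate more easily. Counts of separated genes over all genes under these settings are not given here, so the member counts cannot be set against other genes. Medians with 1 heart left out were −0.03 to 0.05 for all members, 0.10 to 0.25 for the muscle members and −0.04 to 0.06 for the proteasome. Under the other settings they were −0.02 to 0.02, 0.05 (no filter) to 0.27 (pseudocount 0.1), and −0.04 to −0.00 in the same order of lists. A replicate block gave 4 members higher and 4 lower at an unadjusted p under 0.05 and changed no call. Over all genes it took the smallest adjusted p from 0.385 to 0.115 (limma). Genes with an unadjusted p under 0.05 went from 1023 to 1126. Same-numbered hearts had deviations from their group means that correlated at 0.25, 0.05 and 0.04. I/R heart 1 correlated best with Sham heart 1, but I/R heart 2 with Sham heart 3 and I/R heart 3 with Sham heart 2. For I/R heart 2 the values were close, 0.07 with Sham heart 3 and 0.05 with Sham heart 2. With 3 hearts in each group these correlations cannot decide whether the numbers pair the hearts.

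Of 698 values of 44 named genes under other settings, 654 kept their sign and 44 in 20 genes did not, each of a gene whose reported change was smaller than its SE. With median ratio scaling the sign turned for Psmd3 (−0.00648), Psmg2 (−0.0180), Trim72 (−0.00799), Uba1 (−0.00477) and Usp13 (−0.0235), with quantile normalization for Ube4a (0.00985) and Usp13 (−0.0354), and with the most abundant transcript for Ube3a (0.00740). With 1 heart left out, the change ran from −0.00466 to 0.278 for Asb15, −0.543 to 0.165 for Asb18, −0.0111 to 0.258 for Fbxo40, −0.000366 to 0.162 for Fbxo45, −0.0170 to 0.0976 for Klhl41, −0.0148 to 0.156 for Psmb7, −0.172 to 0.0113 for Psmc6, −0.0256 to 0.113 for Psmd3, −0.0622 to 0.05002 for Psmd7 and −0.233 to 0.199 for Psme4. It ran from −0.0459 to 0.0725 for Psmg2, −0.185 to 0.2104 for Psmg4, −0.447 to 0.1401 for Rnf144b, −0.0267 to 0.127 for Trim72, −0.0876 to 0.181 for Uba1, −0.624 to 0.386 for Ubb, −0.0854 to 0.00766 for Ube2g2, −0.195 to 0.142 for Ube3a, −0.0837 to 0.0578 for Ube4a and −0.00187 to 0.0274 for Usp13. The cause of these turns was not tested. Depth limits the low members: Otub1 rests on 23 reads in I/R and 64 in Sham.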
